A study of Mus musculus with 25 samples.

Results

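Strain B6.C-D7Mit353 is a lean congenic mouse, and its gastrocnemius, a mixed but mainly fast calf muscle, was compared here with that of its background strain C57BL/6J (B6). The comparison used the 6 arrays whose source label is gastrocnemius, 3 of the congenic strain, labelled as homozygous, and 3 of B6, out of 25 arrays in the series. The congenic strain is named for a chromosome 7 marker, and in mouse nomenclature its B6.C prefix stands for a C57BL/6 background that carries donor DNA from BALB/c. The labels name no treatment and no drug, and they give neither sex nor age, so every group is described by strain and tissue alone. Both gastrocnemius groups are biological triplicates per the series design, with 1 sample per 1-colour array. The series also holds brain, liver and gonadal fat of both strains, used below for levels in those tissues and for 1 contrast of the muscle difference with theirs.

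Muscle burns both glucose and fatty acids, and nuclear coactivators of the PGC-1 family together with the estrogen-related receptors set how much mitochondrial machinery it makes. A sample of whole muscle also carries vessels, nerve, tendon, connective tissue and fat cells between the fibres, and each contributes RNA. Fat cells store triglyceride in droplets coated by perilipins and CIDE proteins. In a bulk sample, fewer cells of a type and less RNA per cell cannot be told apart.

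Each array held 32996 probes. A probe counted as detected where its ratio of signal to noise was 3 or more, and 13336 to 14537 probes were detected on the congenic arrays, against 13115 to 14371 on the B6 arrays. Across probes, correlations between pairs of the 6 arrays ran from 0.937 to 0.971. Muscle markers were among the brightest probes on every array. Skeletal alpha-actin (Acta1) lay at log2 signals of 20.72 to 20.99 in congenic muscle, against 20.60 to 21.92 in B6, and the creatine kinase Ckm at 20.32 to 20.60 against 20.08 to 20.53. The fast myosin gene Myh4 had no named probe. Of 12 hepatocyte genes on the array, 0 were detected on enough arrays to be tested, and albumin (Alb) and Ahsg were detected on none of the 6. Apoa1 was detected on 1 B6 array, and lay at 12.34 on B6 replicate 3 and at 7.41 to 7.97 on the other arrays. Ttr was detected on 1 congenic and 1 B6 array, and Fgb on 1 congenic array. Fat and connective tissue markers are described below, because they were not even across the arrays.

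Of the 13252 probes detected on at least 3 of the 6 arrays, limma called 0 at an adjusted p under 0.05 (0%), and the lowest adjusted p was 0.996. No gene is therefore said to differ between the strains in muscle by this test. At an unadjusted p under 0.05 there were 373 probes (2.81%), where 662.6 would be expected by chance, with 175 higher in the congenic (1.32%) and 198 lower (1.49%). The arrays of the strains did not overlap for 1028 probes (7.76%), 537 of them with all congenic values above all B6 values (4.05%) and 491 with all below (3.71%). The congenic mean was the higher one for 50.8% of probes and the lower one for 49.2%. The median standard deviation within a strain was 0.355 log2 units. In data simulated from these arrays the test recovered 14% of probes changed by 1 log2 unit, 54% at 2, 76% at 3 and 74% at 4. There 50 probes were changed at each size, which need not match the real arrays, so these shares may overstate the recovery in them. Values below are normalized log2 signals of single arrays, differences are congenic minus B6 with their standard error (SE), and the 25 genes of smallest unadjusted p are called the leading genes. Among these, 9 had higher and 16 lower congenic means, with unadjusted p-values from 0.000188 to 0.0105 and an adjusted p of 0.996 for each. Their separation between strains is what chose them, so it is described without a further test.

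**Figure D1:**
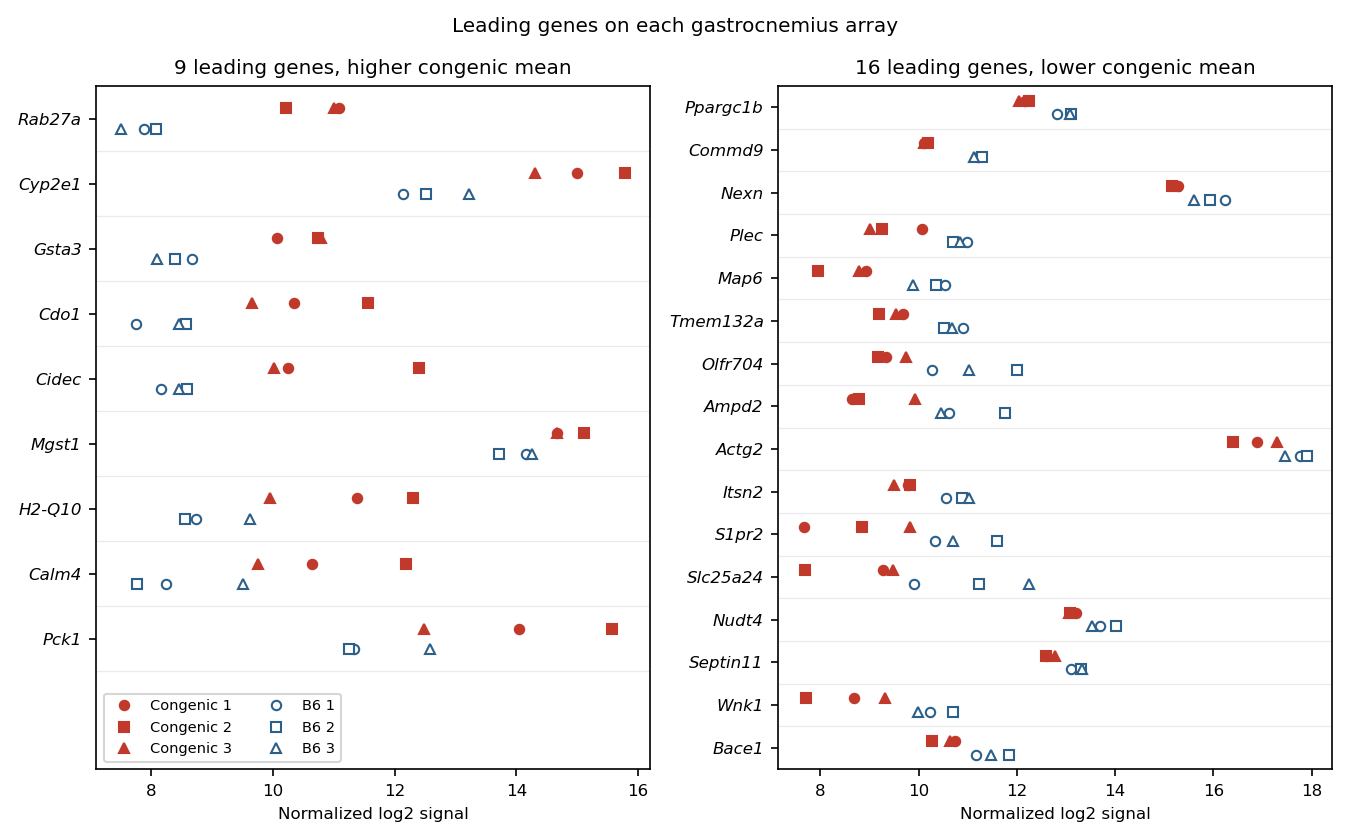
Normalized log2 signal (horizontal axis) of the 25 leading genes on each gastrocnemius array. Filled red symbols are the 3 congenic arrays, drawn above the 3 open blue B6 symbols of the same gene. The left panel holds the 9 genes with higher congenic means and the right panel the 16 with lower ones, and only Pck1 has overlapping strains.

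The largest difference belonged to Rab27a, a small GTPase that tethers secretory vesicles and melanosomes. Its signals were 11.09, 10.21 and 11.01 in congenic muscle, against 7.89, 8.09 and 7.52 in B6, and it was detected on all 3 congenic arrays and on 0 of 3 B6 arrays. Where a strain detected a probe on none of its arrays, its signal is not above background, and the fitted fold is only an estimate. A floor for the dimmer strain was built on each array from the probe's own value or the lowest detected signal, whichever was higher. For Rab27a, Cidec, Map6 and Myo7a this floor left the fitted fold unchanged, so it sets no lower limit on the fold. Congenic Rab27a had a fitted fold of 7.67, from a difference of 2.94 ± 0.47 (SE). Of 11 genes of the Rab27 effector group on the array, the only other one tested was the myosin motor gene Myo5a, at 0.99 ± 0.68, which was 0.09 without B6 replicate 1 and 1.58 without B6 replicate 2. Calm4, a calmodulin-like gene known from skin, was also higher, at 10.64, 12.19 and 9.75 in the congenic, against 8.24, 7.78 and 9.51 in B6, where 1 of 3 arrays detected it.

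Enzymes of foreign compound and sulphur metabolism formed the next group. Cyp2e1, a cytochrome P450 that oxidises ethanol and acetone and is encoded on chromosome 7, had signals of 14.99, 15.78 and 14.31 in congenic muscle, against 12.14, 12.51 and 13.23 in B6. The strains did not overlap, and the difference of 2.40 ± 0.39 (SE) is a 5.29-fold higher mean. Gsta3, an alpha class glutathione transferase, lay at 10.06, 10.74 and 10.79 in the congenic, against 8.68, 8.39 and 8.11 in B6. With 0 of 3 B6 arrays detecting it, the fitted fold was 4.42. Cdo1, cysteine dioxygenase, which starts the breakdown of cysteine to taurine and sulphate, lay at 10.34, 11.56 and 9.66 in the congenic, against 7.75, 8.57 and 8.46 in B6. It too was detected on 0 of 3 B6 arrays and had a fitted fold of 4.79. Mgst1, a microsomal glutathione transferase, was bright in both strains, at 14.67, 15.12 and 14.67 in the congenic, against 14.16, 13.71 and 14.26 in B6, a difference of 0.78 ± 0.21. Across the 22 tested genes of glutathione and foreign compound metabolism, 17 had higher congenic means and 5 lower, with a median difference of 0.16 where the median of all 7413 tested genes was 0.0182. These 4 enzymes, leading genes chosen by p, were its only members at an unadjusted p under 0.05. Of all 7413 tested genes, 197 had such a p. The remaining members ran from -0.20 for Gsta4 to 1.01 for Cyp2f2, with the glutathione peroxidase Gpx1 at 0.07 and the glutathione reductase gene Gsr at 0.03. The median was 0.09 without congenic replicate 2, 0.04 without B6 replicate 3 and 0.28 without B6 replicate 2.

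Genes of lipid storage and glyceride synthesis were also higher in the congenic means. Cidec, which enlarges the lipid droplet of fat cells, had signals of 10.25, 12.39 and 10.02 in congenic muscle, against 8.16, 8.59 and 8.47 in B6, where 0 of 3 arrays detected it. Its fitted fold was 5.59, from a difference of 2.48 ± 0.64 (SE). Pck1, the cytosolic phosphoenolpyruvate carboxykinase that feeds gluconeogenesis in liver and glycerol synthesis in fat, lay at 14.05, 15.56 and 12.48 in the congenic, against 11.33, 11.25 and 12.58 in B6. Here the strains overlapped, since congenic replicate 3 was below B6 replicate 3, and the difference of 2.31 ± 0.70 became 1.54 without congenic replicate 2. Plin1, the perilipin of fat cell droplets, lay at 10.37, 11.44 and 10.28 in the congenic, against 9.15, 8.30 and 9.91 in B6, with no overlap and a difference of 1.57 ± 0.53. Scd1, the desaturase that makes oleate, spread widely at 12.63, 14.78 and 11.24 in the congenic, against 11.17, 8.91 and 11.51 in B6. Its difference of 2.35 ± 0.92 came with overlapping strains and was 1.41 without congenic replicate 2, and the lipogenic genes Fasn, Dgat2 and Thrsp were at 0.78 ± 0.46, 0.73 ± 0.33 and 0.55 ± 0.29. Fasn was at 0.28 without congenic replicate 2 and at -0.13 with the adipocyte covariate described below, and Dgat2 and Thrsp were at 0.38 and 0.32 without B6 replicate 2. In all, 10 of 14 tested genes of fatty acid and triglyceride synthesis had higher congenic means, and Scd1 alone had an unadjusted p under 0.05. Their median of 0.24 was 0.12 without B6 replicate 2 and 0.40 without B6 replicate 1.

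Promoter sequence is shown for 4 of these genes that the RefSeq table lists with 1 start, because their means were higher together. Each run is the 250 bases before the start on build GRCm38.p6, read 5′ to 3′ on the gene's strand. Capitals mark matches on either strand to TTGCNNAA, the letters bound by C/EBP factors of liver and fat, or to TTACGTCA, a near match to the cAMP response element. The runs lie at chr7:140763569-140763818 (+ strand) for Cyp2e1, chr2:173152823-173153072 (+ strand) for Pck1, chr7:79732777-79733026 (- strand) for Plin1 and chr1:21240335-21240584 (+ strand) for Gsta3.
Cyp2e1: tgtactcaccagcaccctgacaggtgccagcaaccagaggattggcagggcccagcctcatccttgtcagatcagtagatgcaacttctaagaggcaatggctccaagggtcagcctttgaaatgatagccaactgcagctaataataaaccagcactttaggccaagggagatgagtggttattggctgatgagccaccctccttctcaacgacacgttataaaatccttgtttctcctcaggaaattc
Pck1: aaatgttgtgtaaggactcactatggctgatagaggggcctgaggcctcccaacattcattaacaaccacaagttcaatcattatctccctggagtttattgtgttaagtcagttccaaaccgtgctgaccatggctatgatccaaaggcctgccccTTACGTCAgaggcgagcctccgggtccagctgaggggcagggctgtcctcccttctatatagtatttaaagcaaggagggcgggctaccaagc
Plin1: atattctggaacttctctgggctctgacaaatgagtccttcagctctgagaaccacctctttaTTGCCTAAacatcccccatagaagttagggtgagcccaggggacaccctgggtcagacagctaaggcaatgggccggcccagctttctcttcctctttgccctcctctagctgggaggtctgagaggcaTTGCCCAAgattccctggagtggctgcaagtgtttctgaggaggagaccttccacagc
Gsta3: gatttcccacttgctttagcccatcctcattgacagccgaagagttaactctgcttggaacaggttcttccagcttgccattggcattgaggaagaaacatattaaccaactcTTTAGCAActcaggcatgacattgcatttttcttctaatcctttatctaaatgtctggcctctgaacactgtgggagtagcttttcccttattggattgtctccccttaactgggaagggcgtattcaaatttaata
TTACGTCA occurred in the Pck1 run, with its first base 93 bases before the start, and in 147 of 32851 such runs of the table (0.447%). TTGCNNAA occurred 2 times in the Plin1 run and 1 time, on the opposite strand, in the Gsta3 run, against 3142 of 32851 runs with a match (9.56%). Neither pattern was found in the Cyp2e1 window. The motifs were picked with the values known, and a match is a description of letters only.

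Most of the higher leading genes are bright in other tissues of the same strain. When all tissues were normalized together, 7 of the 9 had a B6 gonadal fat signal more than 2 log2 units above the mean of the 6 muscle arrays, and 6 had such a liver signal. Of the 16 lower leading genes 0 did in fat and 0 in liver, and over all 7413 tested genes the shares were 7.07% and 6.73%. Rab27a and Calm4 were the exceptions, at 8.44 and 8.13 in B6 fat, and 7.86 and 8.68 in B6 muscle on the same scale. H2-Q10, a class I gene of the major histocompatibility complex, was bright in B6 liver, at 19.56, and had muscle signals of 11.39, 12.31 and 9.96 in the congenic, against 8.74, 8.56 and 9.63 in B6. Its fitted fold was 4.73, and 0 of 3 B6 muscle arrays detected it. It was the only one of 9 tested antigen presentation genes at an unadjusted p under 0.05, and 6 of the 9 were highest on congenic replicate 2. On the linear scale, the gap between congenic and B6 muscle was 2.33% of the B6 fat signal for Cyp2e1, 3.11% for Gsta3 and 1.22% for Cdo1. It was 2.41% for both Cidec and Pck1, 7.11% for Mgst1 and 44.7% for H2-Q10. For Scd1, not a leading gene, it was 1.66%. The gap was 10.1% of the fat signal for Plin1, 0.262% for the fat cell regulator Pparg and -3.80% for the glycerol channel gene Aqp7, which was lower in the congenic. The 96 tested genes more than 4 log2 units brighter in B6 fat than in muscle had a median strain difference of 0.32, and 64.6% of them had higher congenic means, against 52.5% of all genes. Over the 96 genes, arrays deviated from the 6-array mean by -0.03, 0.72 and -0.10 in the congenic, against -0.38, 0.11 and -0.33 in B6. Congenic replicate 2 was thus the highest, and B6 replicate 2 lay above the other congenic arrays. The median was 0.19 for the 62 of these genes with a liver signal less than 2 log2 units above muscle, of which 64.5% were higher, and 0.86 for the 19 more than 4 log2 units above muscle in both tissues. For 61 genes that bright in liver and less than 2 log2 units above muscle in fat, the median was 0.09 and 55.7% were higher. B6 muscle arrays enter both sides of these comparisons in part, so they are given without a test.

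**Figure D2:**
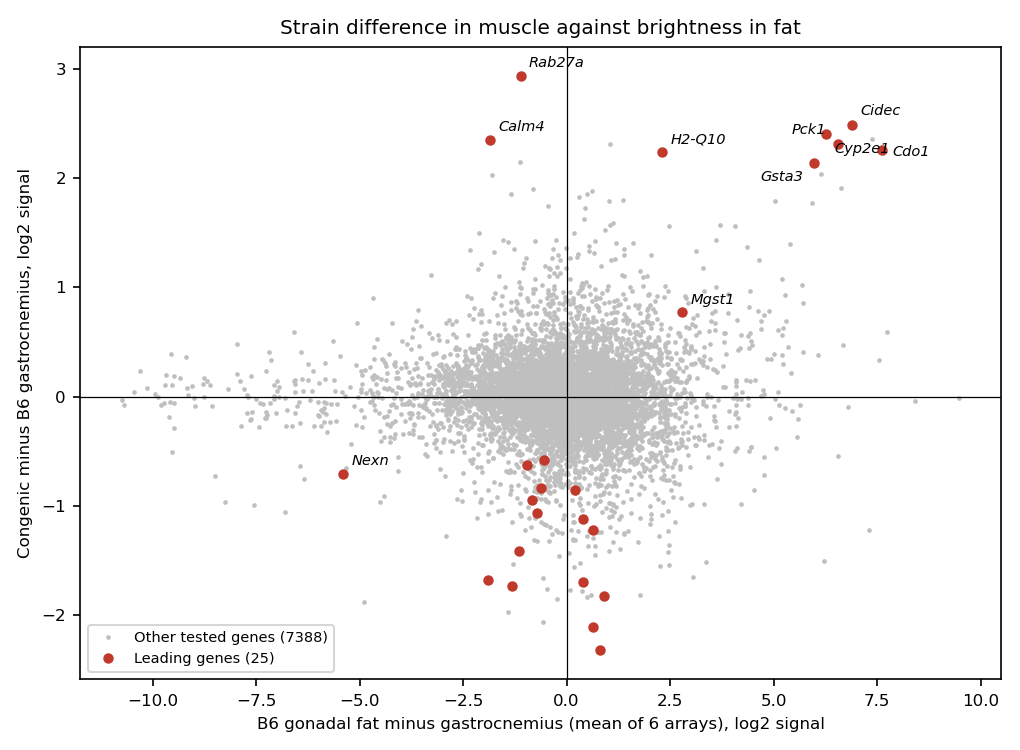
Each point is a tested gene. The horizontal axis is the B6 gonadal fat signal minus the mean of the 6 gastrocnemius arrays, and the vertical axis is congenic minus B6 gastrocnemius, both in log2 units. The 25 leading genes are red, and Cidec, Pck1, Cyp2e1, Cdo1 and Gsta3 lie at the upper right, while Rab27a and Calm4 lie left of 0.

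Fat cell genes were not level across the muscle arrays, and the values below stand beside the lipid and enzyme genes just described. Of 13 adipocyte genes on the array 10 were tested, 9 with higher congenic means, and the median difference was 0.47, against 0.0182 over all tested genes. Averaged over the 10 genes, arrays deviated from the 6-array mean by -0.03, 1.17 and 0.08 in the congenic, against -0.57, -0.46 and -0.19 in B6. Their summed linear signal was 314800, 523400 and 258600 in the congenic, against 224500, 197800 and 299600 in B6, so these ranges overlapped. The list median was 0.78 without congenic replicate 1 and 0.37 without congenic replicate 2. Congenic replicate 2 had the highest value for 6 of the 10. Leptin (Lep) was detected on that array alone of the 6, resistin (Retn) on none, and adiponectin and adipsin had no named probe. Fabp4, the fatty acid binding protein of fat cells and capillaries, was bright on every array, at 18.00, 18.70 and 17.60 in the congenic, against 17.58, 17.32 and 17.93 in B6. With the adipocyte level of each array as a covariate the difference was 0.99 for Cidec, 0.66 for Pck1, 0.68 for Plin1, 0.41 for Scd1, 1.19 for Cdo1, 1.52 for Cyp2e1, 1.99 for Gsta3 and 3.56 for Rab27a. Cidec, Pck1 and Plin1 are themselves part of that level.

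Among the 16 lower leading genes the smallest p belonged to Ppargc1b, the PGC-1 beta coactivator of mitochondrial and fatty acid oxidation genes. Its signals were tight within each strain, at 12.16, 12.25 and 12.04 in congenic muscle, against 12.81, 13.09 and 13.07 in B6. The difference of -0.84 ± 0.19 (SE) ran from -0.93 to -0.78 when arrays were left out in turn, and it was -0.97 with the adipocyte covariate. Esrra, the estrogen-related receptor alpha that PGC-1 proteins coactivate, also had every congenic value below every B6 value, at 13.53, 13.52 and 13.60 against 13.89, 13.95 and 14.02, a difference of -0.40 ± 0.15. The other PGC-1 coactivator, Ppargc1a, lay at 13.57, 12.23 and 13.56 in the congenic, against 12.18, 12.25 and 13.55 in B6, with overlap. Of 13 tested regulators of mitochondrial genes, 7 had higher and 6 lower congenic means. Ppargc1b and Esrra were the only ones at an unadjusted p under 0.05, a level reached by 197 of all 7413 tested genes. Tfam and Nrf1, which drive mitochondrial DNA and respiratory genes, were at -0.04 and 0.15.

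The other lower leading genes had varied roles. Nexn, a Z disc protein that binds actin, lay at 15.27, 15.15 and 15.22 in congenic muscle, against 16.23, 15.93 and 15.60 in B6, a difference of -0.70 ± 0.18 (SE). Plec, the linker plectin, was detected on 0 of 3 congenic arrays and 3 of 3 B6 arrays. By the fitted fold it was 2.66-fold lower in the congenic. Its probe was dim in both strains, with a congenic mean of 9.44 ± 0.55 and a B6 mean of 10.85 ± 0.14 (SD, n = 3 each). Ampd2, an AMP deaminase, was likewise detected on 0 of 3 congenic arrays, with signals of 8.65, 8.79 and 9.93 against 10.61, 11.76 and 10.46 in B6. It was 3.54-fold lower by the fitted fold. Tmem132a, a transmembrane protein gene, was 2.34-fold lower by the same rule. The sphingosine phosphate receptor S1pr2, the mitochondrial carrier Slc25a24 and the kinase gene Wnk1 were at -2.10 ± 0.60, -2.32 ± 0.69 and -1.73 ± 0.53, each detected on 1 of 3 congenic arrays. Commd9 was at -1.07 ± 0.27, the endocytic scaffold Itsn2 at -1.12 ± 0.32, the beta-secretase gene Bace1 at -0.95 ± 0.29, Nudt4 at -0.63 ± 0.19 and Septin11 at -0.58 ± 0.18. Actg2, smooth muscle gamma-actin, was at -0.85 ± 0.24, but its signals of 16.39 to 17.90 may include other actins of nearly the same sequence, so its identity is uncertain.

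Fuel metabolism genes of the fibres were close between the strains. Of 41 tested respiratory chain and ATP synthase genes 34 had higher congenic means, with a median of 0.10, and 0 had an unadjusted p under 0.05. All 16 fatty acid oxidation genes were higher in mean, with a median of 0.15, as were 12 of 13 genes of pyruvate dehydrogenase and the citric acid cycle, with a median of 0.09. For both lists 0 members had an unadjusted p under 0.05. These directions rest on B6 replicate 2, without which the medians were -0.04, -0.04 and -0.07. Uqcrc2, of respiratory complex III, lay at 18.49, 18.42 and 18.35 in the congenic, against 18.08, 17.22 and 18.46 in B6, and Hadhb, of the trifunctional enzyme, at 17.42, 17.50 and 17.60 against 17.04, 16.50 and 17.67. In both cases the B6 replicate 2 value was the lowest of the 6. Of 13 genes of insulin signalling and glucose uptake, 9 had higher means, and Tbc1d1, a regulator of GLUT4 traffic, lay at 13.32, 13.21 and 12.98 in the congenic, against 12.81, 12.54 and 12.79 in B6, a difference of 0.46 ± 0.19. The GLUT4 gene Slc2a4 was at 0.22 ± 0.19. Among 15 genes of glycolysis and glycogen the widest difference was that of Ppp1r3c, a glycogen targeting subunit, at 0.91 ± 0.53 with overlapping strains. All 9 fast fibre genes and 11 genes of fibres in general had unadjusted p-values above 0.05, with medians of -0.03 and -0.01.

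**Figure D3:**
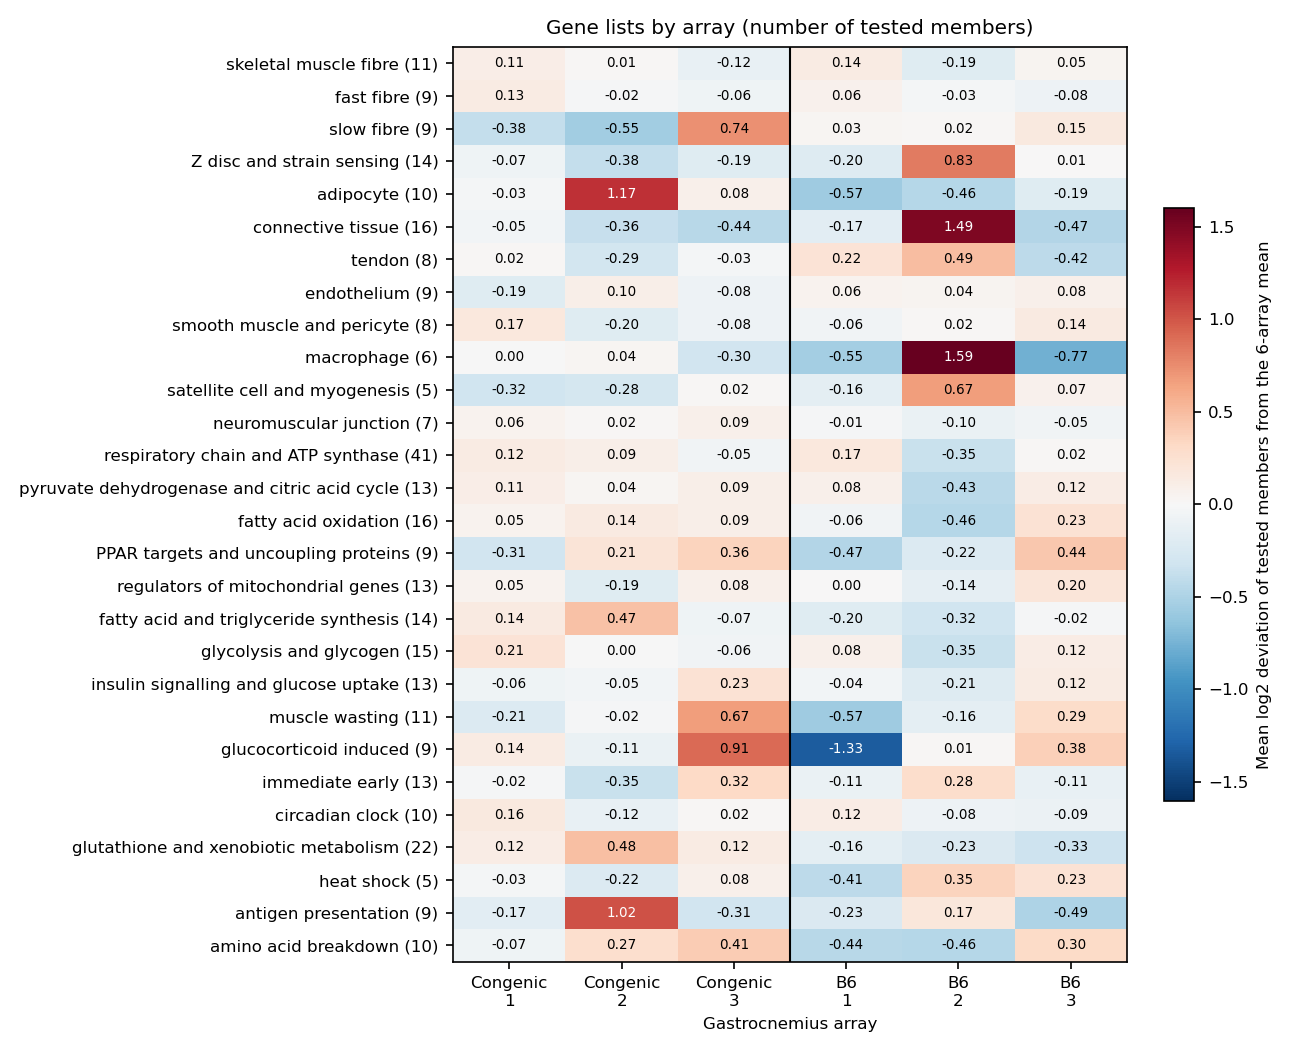
Mean log2 deviation of the tested members of each list (rows, number in brackets, lists with under 5 tested members left out) from the 6-array mean, on the 3 congenic arrays (left) and the 3 B6 arrays (right). Among the lists drawn, the deepest red cells are connective tissue at 1.49 and macrophage at 1.59 on B6 replicate 2 and adipocyte at 1.17 on congenic replicate 2, and the deepest blue is the glucocorticoid list at -1.33 on B6 replicate 1.

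B6 replicate 2 stood apart in connective tissue, macrophage and strain-responsive genes. The 16 tested connective tissue genes had a median difference of -0.51, and 14 of them had lower congenic means, but 14 of the 16 were highest on that 1 array and the median was 0.05 without it. Col3a1, the type III collagen chain, lay at 17.11, 16.44 and 16.02 in the congenic, against 16.71, 19.16 and 16.10 in B6. Postn, the matrix protein periostin, lay at 10.79, 11.54 and 10.98, against 9.94, 15.69 and 10.61 in B6. Decorin (Dcn), an abundant fibroblast proteoglycan, was even across arrays at 19.27 to 19.67 in the congenic, against 19.25 to 19.60 in B6. Tendon genes were not uniform: tenomodulin (Tnmd) lay at 12.36 to 12.83 in the congenic, against 12.18 to 12.85 in B6, while Thbs4 reached 18.71 on B6 replicate 2 and 16.76 to 17.30 on the other arrays.

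The same B6 array was highest for all 6 tested macrophage genes. Lyz2, the lysozyme of macrophages, lay at 15.65, 16.12 and 15.46 in the congenic, against 15.47, 18.16 and 15.18 in B6, and the list's median of -0.21 was 0.56 without B6 replicate 2. Ankrd1, a titin-binding protein that rises with stretch and injury, lay at 12.44, 11.76 and 11.90 in the congenic, against 12.43, 16.96 and 12.34 in B6. Csrp3, a Z disc strain sensor, reached 18.77 on that array, and Myog, the myogenin gene of differentiating muscle, lay at 10.29, 10.54 and 10.84, against 11.11, 13.45 and 10.93 in B6. The strain difference of Ankrd1 was -1.88 ± 1.07 (SE) and -0.35 without B6 replicate 2. The Z disc and strain sensing list had a median of -0.36, and -0.03 without B6 replicate 2. Nexn did not follow this array, since its highest value was on B6 replicate 1.

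**Figure D4:**
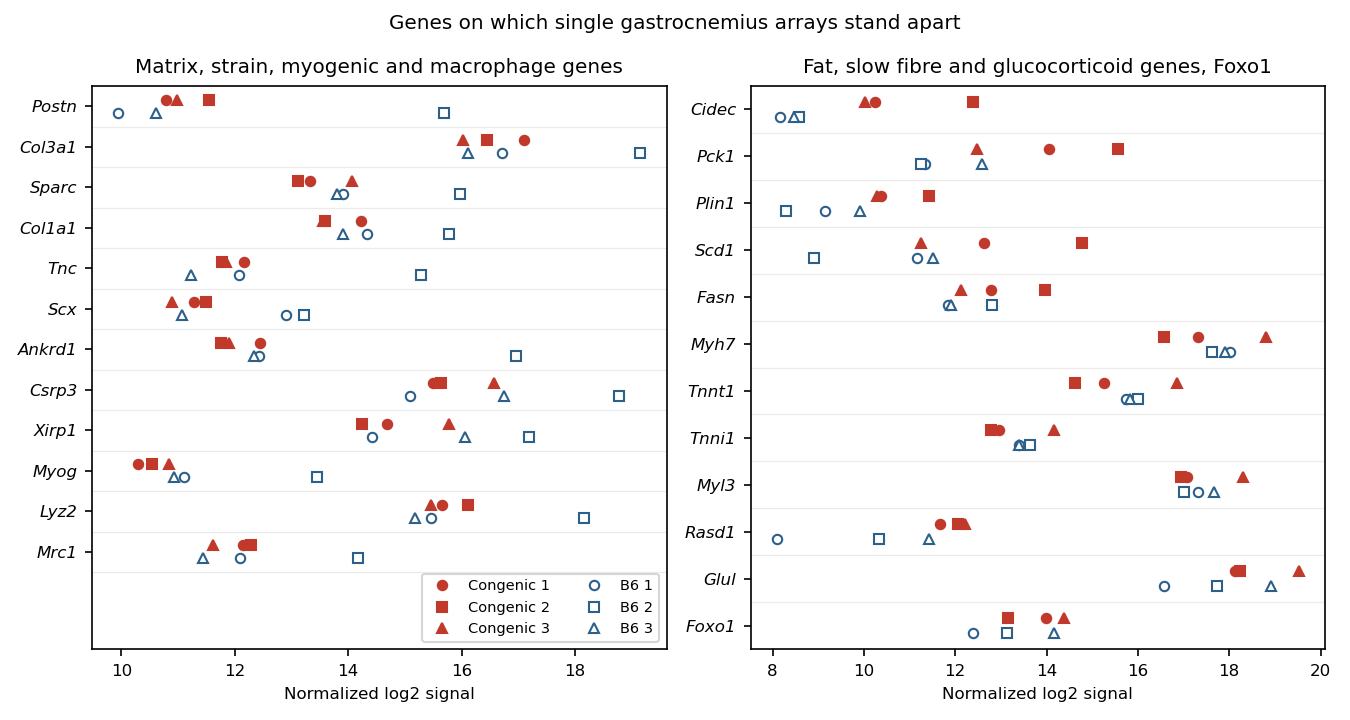
Normalized log2 signal (horizontal axis) on each gastrocnemius array of genes chosen after their values were seen. Filled red symbols are the 3 congenic arrays, drawn above the 3 open blue B6 arrays. In the left panel B6 replicate 2 (open square) lies at the far right, and in the right panel congenic replicate 2 (filled square) leads for the fat genes and congenic replicate 3 (filled triangle) for the slow fibre genes.

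Congenic replicate 3 stood apart in slow fibre and hormone-responsive genes. Of 9 slow fibre genes, 7 were highest there, and Myh7, the slow myosin heavy chain, lay at 17.32, 16.57 and 18.81 in the congenic, against 18.01, 17.63 and 17.91 in B6. The congenic arrays thus held both the highest and the lowest Myh7 value, and the slow fibre median of -0.01 was -0.58 without congenic replicate 3, 0.22 without congenic replicate 2 and 0.05 with median scaling. Among 9 glucocorticoid-induced genes, 8 had higher congenic means with a median of 0.51, 8 were highest on congenic replicate 3 and 7 were lowest on B6 replicate 1. Rasd1, a Ras-like gene raised by dexamethasone, lay at 11.66, 12.07 and 12.22 in the congenic, against 8.09, 10.33 and 11.42 in B6, a difference of 2.03 ± 0.72 (SE) with no overlap. Without B6 replicate 1 this was 1.12, and the median of the list was 0.22. That median was 0.24 without congenic replicate 3 and 0.78, 0.81 and 0.77 without congenic replicate 2, B6 replicate 2 and B6 replicate 3. Tsc22d3, the glucocorticoid-induced leucine zipper, was at 0.51 ± 0.22. Of 11 genes of muscle wasting 10 had higher congenic means, with a median of 0.31, which became -0.00189 without congenic replicate 3. The autophagy gene Bnip3 lay at 17.71, 17.86 and 18.30, against 17.12, 17.08 and 17.95 in B6. Among 10 clock genes 0 had an unadjusted p under 0.05, and the median was 0.11. The same count of 0 held for genes of endothelium, vessel wall, neuromuscular junction, immediate early response and heat shock, with medians of 0.01, -0.09, 0.13, 0.0011 and -0.18.

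On chromosome 7, which carries the congenic interval's marker, 596 genes were tested and 0 were called. At an unadjusted p under 0.05 there were 17 (2.85%), against 180 of 6814 genes on other chromosomes (2.64%), and strains did not overlap for 5.54% of them, against 7.81% elsewhere. Median differences were 0.0171 and 0.0186. Besides Cyp2e1 and Plin1, the chromosome 7 genes of smallest p were Map6, Olfr704, Myo7a and Nmb. Map6, a microtubule stabiliser, lay at 8.93, 7.96 and 8.79 in congenic muscle, against 10.54, 10.36 and 9.88 in B6. It was detected on 0 of 3 and 3 of 3 arrays and was 3.25-fold lower by the fitted fold. Myo7a, an unconventional myosin of hair cells, lay at 8.12, 8.28 and 7.59, against 9.25, 10.67 and 9.53 in B6. It was also detected on 0 of 3 and 3 of 3 arrays and was 3.53-fold lower by the fitted fold. In the fit of all tissues the Myo7a differences were -2.18 in muscle, -2.01 in brain, -0.24 in liver and 0.03 in fat, and those of Map6 were -1.88 in muscle, -0.21 in brain, -1.97 in liver and 0.01 in fat. Olfr704, an olfactory receptor gene, was at -1.68 ± 0.47, detected on 1 of 3 congenic arrays. Nmb, the neuromedin B peptide, was at 1.18 ± 0.40 in muscle. The uncoupling protein gene Ucp3, a chromosome 7 gene of muscle mitochondria, lay at 17.35, 16.74 and 17.77 in the congenic, against 17.16, 16.96 and 17.52 in B6, a difference of 0.08 ± 0.27, and Ucp2 was not among the tested genes.

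Whether a strain difference in muscle departed from that in the other tissues was tested on 24 arrays, as the muscle difference minus the mean of the differences in brain, liver and gonadal fat. Limma called 2 of 13252 probes (0.0151%), with 578 at an unadjusted p under 0.05 (4.36%). Both calls concern genes that 0 of 3 B6 muscle arrays detected. Each entered the test through its 3 congenic muscle arrays alone, where it was higher, so its muscle difference is taken against a B6 signal not above background and the call is given as a description only. Cdo1 had a contrast of 2.59 ± 0.40 (SE; limma, adjusted p = 0.0172), with congenic minus B6 differences of 2.58 in muscle, 0.35 in brain, -0.10 in liver and -0.28 in fat. Gsta3 had a contrast of 2.24 ± 0.39 (adjusted p = 0.0460), with differences of 2.44 in muscle, -0.05 in brain, 0.02 in liver and 0.62 in fat. Both genes were far brighter in B6 liver and fat than in B6 muscle, Cdo1 at 17.73 and 17.30 beside 8.37 and Gsta3 at 18.29 and 15.74 beside 8.52. With arrays normalized within each tissue 0 probes passed, with contrasts of 2.27 for Cdo1 (adjusted p = 0.0876) and 1.93 for Gsta3 (adjusted p = 0.249). Set against gonadal fat alone 0 passed as well, with 2.86 for Cdo1 (adjusted p = 0.0804) and 1.82 for Gsta3 (adjusted p = 0.900). Without B6 replicate 1 again 0 passed, with 2.31 and 2.46 and an adjusted p of 0.0854 for both, while Gsta3 alone missed the threshold without congenic replicate 2, B6 replicate 2 or B6 replicate 3, with adjusted p-values of 0.213, 0.127 and 0.0932 and contrasts of 2.15, 2.25 and 2.08. The contrast count was 28 without congenic replicate 3, 3 without B6 replicate 3, 1 without congenic replicate 2 and 1 without B6 replicate 2. The other 8 genes of smallest p had adjusted p-values from 0.322 to 0.595, among them Ampd2 at -1.94 ± 0.40, Cyp2e1 at 2.47 ± 0.54, Hid1 at -2.12 ± 0.50 and Cidec at 2.48 ± 0.64. In muscle, Cidec was detected on 0 of 3 B6 arrays and Ampd2 on 0 of 3 congenic arrays. The Cyp2e1 contrast includes a brain difference of -1.07, and 1 of 3 B6 brain arrays detected that gene.

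**Figure D5:**
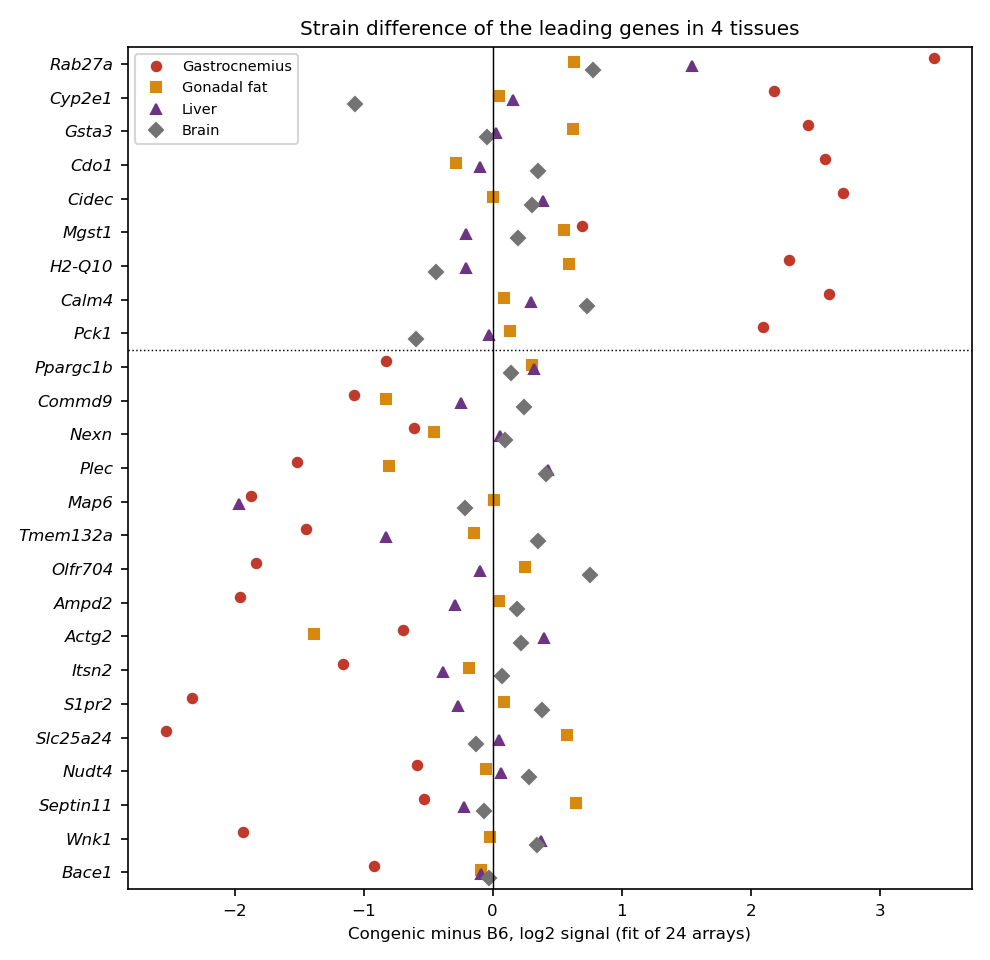
Congenic minus B6 difference in log2 signal (horizontal axis) of each leading gene in gastrocnemius, gonadal fat, liver and brain, from the fit of 24 arrays. Genes above the dotted line have higher congenic means in muscle. Muscle points lie at the edge for Cyp2e1, Gsta3, Cdo1, Cidec and Pck1, whose fat and liver points lie between -0.28 and 0.39 apart from Gsta3 in fat at 0.62, and Map6 is as low in liver, at -1.97, as in muscle.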

How the data were processed

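Per the labels' protocols, RNA extracted in TRIzol was linearly amplified into cRNA carrying digoxigenin, which Applied Biosystems arrays detect by chemiluminescence. The deposited Signal is a linear intensity, per the file headers, and appeared not to be background corrected. Also deposited were a score per probe, its ratio of signal to noise, and a quality flag of unstated meaning. The deposited series matrix holds log2 values, equal to log2 of Signal plus a constant per array and blank below a ratio of 3, and served as an alternative. The array software is not given in the sources used here.

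Replicates were numbered in accession order. The 6 gastrocnemius arrays were normexp corrected (offset 50), log2 transformed and quantile normalized in limma 3.58.1 (R 4.3.3). Probes with a ratio of at least 3 on at least 3 arrays were tested with lmFit and eBayes with an intensity trend, adjusted by Benjamini-Hochberg at 0.05. The number of arrays limits the precision, and p-values measure only the spread between these samples. The contrast between tissues used 24 arrays, without 1 congenic brain array outside the named triplicates, normalized together, with the title number as a random block (correlation -0.112).

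Genes came from the platform annotation, updated by Entrez identifier to GRCm38.p6: 14401 probes had 1 gene, 247 several and 18348 are unnamed here. The brightest tested probe stood for a gene. Named were the 25 genes of smallest unadjusted p, up to 4 members of largest difference of each described list, and 6 chromosome 7 genes with Ucp2 and Ucp3. Some of the preset defining markers of cell types, and some of the 10 genes of smallest p in the contrast, were named as well. Other named genes were chosen after their values were seen. The 32 lists and the members were chosen with earlier results of these data known. The test was tried on simulated data with 50 probes per size and made 3 false calls. Alternatives changed background, scaling, filter, variance model, arrays and covariates.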

Additional observations from a re-analysis of the deposited data

Results flagged for a closer look

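Cdo1 and Gsta3 are listed because the contrast of their strain difference in gastrocnemius with that in the other tissues passed the threshold, at 2.59 log2 units for Cdo1 and 2.24 for Gsta3 (limma, adjusted p = 0.0172 and 0.0460). Neither was detected on any of the 3 B6 muscle arrays. Each passed the detection filter through the congenic muscle arrays alone, so the difference is against a signal not above background, and neither the test nor the order of the arrays is independent of the filter. Both calls were lost with normalization within tissues (contrasts of 2.27 and 1.93), against gonadal fat alone (2.86 and 1.82) and without B6 replicate 1 (2.31 and 2.46). That of Gsta3 was also lost without congenic replicate 2, B6 replicate 2 or B6 replicate 3, at 2.15, 2.25 and 2.08.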

How the results depend on the processing

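The count of probes differing between the strains was 0 in the reported test, 3 in the fit of 24 arrays (Cdo1, Gsta3 and Ampd2, adjusted p = 0.00105, 0.00105 and 0.0345), and 0 to 0 when each array was left out in turn. In muscle, Cdo1 and Gsta3 were detected on no B6 array and Ampd2 on no congenic array. Each of the 3 passed the filter through the other strain alone, so these calls are a description only. The count was 0 under every other alternative run, with 200 to 1247 probes at an unadjusted p under 0.05. The contrast count of 2 was 0 with quantile normalization within each tissue, 0 against gonadal fat alone, 2 without the title number block, and 0 (without B6 replicate 1) to 28 (without congenic replicate 3) when arrays were left out. The cause was not tested. Of the probes at an unadjusted p under 0.05, 46.9% were higher in the congenic, 54.4% with median scaling, 70.7% with the series matrix values, 30.9% without congenic replicate 3 and 61.4% without B6 replicate 3. Of 422 values of the 25 leading genes under 18 alternatives, 0 turned sign and 19, in 12 genes, moved by over 1.5 times, with the adipocyte covariate, without both second arrays or, for Pck1, without congenic replicate 2. All of the 25 but Pck1 had strains that did not overlap, and that separation is what chose them. Leaving arrays out could thus hardly turn their sign, so the count of 0 is a description only. Of 112 other named genes, 40 turned sign under at least 1 alternative. The covariate of connective tissue, the omission of values with flag 0 and the fit without both second arrays were chosen after seeing the data. No paired analysis was possible because no title number recurs between the strains in gastrocnemius. Signal near background limits the dim genes, those detected on no array of a strain above all.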
